A study of Mus musculus with 6 samples.

Results

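The genes described here are 10 regulators, 9 transcription factors and a co-activator, of the B lymphocyte lineage and of the germinal centre reaction: Pax5, Ebf1, Irf4, Irf8, Pou2af1, Pou2f2, Bach2, Bcl6, Ikzf1 and Ikzf3. They were taken by symbol from a table of 22354 genes, where 11 rows carry their names because Pou2f2 has 2 gene IDs. The second Pou2f2 row (ENSMUSG00000093440) held a single read in all 6 libraries and was left aside. The remaining 10 rows all passed the filter on low counts. They were read in 3 libraries labelled Smad4 knockout (the genotype is written Smad4ΔLrig1) and in 3 libraries labelled wild type (written SMAD4+ control, and called control here). All 6 mice are labelled C57BL/6J, and all received tamoxifen 1 month before the colon was taken, so the controls share the drug. Smad4 carries the signals of TGF-beta and BMP receptors to the nucleus, and Lrig1 is a marker of epithelial stem cells in the gut. The labels give no further allele, no age and no measure of how many cells lost Smad4. After EDTA had freed the crypts, the tissue under them was lifted from the muscle by scraping, and RNA was made from it.

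B cells are made in the bone marrow, where Ebf1 and Pax5 switch on the genes of the B cell receptor and close off other fates. In the colon, mature B cells gather in lymphoid follicles, and their activation can lead to a germinal centre, a site where antibody genes are mutated and selected. Bcl6 and Bach2 are repressors that keep cells in that state, whereas Irf4 and the repressor Prdm1 drive them on to become plasma cells. Pou2f2 (Oct-2) and its co-activator Pou2af1 (OBF-1) act together on the octamer motif of immunoglobulin promoters, and Ikzf1 (Ikaros) and Ikzf3 (Aiolos) are zinc finger proteins of the whole lymphoid lineage.

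Library totals ran from 18918880 to 25867997 counts over 18671 to 19193 detected genes. Smad4 itself was at 91.9, 102.1 and 59.0 CPM in knockout libraries, against 131.6, 152.5 and 110.9 CPM in control libraries. CPM are counts scaled to library size, with TMM factors between libraries. The Smad4 counts cover the whole gene, and its log2 fold change of -0.64 ± 0.21 (SE) missed the 0.05 threshold (edgeR quasi-likelihood test over all genes, adjusted p = 0.338). The labelled tissue is stroma, but 10 epithelial markers summed to 22530 ± 970.2 CPM in knockout and 24178 ± 4099 CPM in control libraries, whereas 7 fibroblast markers summed to 21.2 ± 3.92 and 12.7 ± 2.27 CPM (SD, n = 3 each). By these sums the epithelial markers exceed the fibroblast markers in every library. Control replicate 1 stood apart from its group: its counts differed from those of the other controls by a chi-square per degree of freedom of 55.9 and 72.9, against 13.4 between those. Without it edgeR's quasi-likelihood test called 17 genes and 0 of the 10 factors, and DESeq2 called 8 factors. The knockout libraries lay above the remaining controls for 9, which leaving out a control could not undo except through rescaling. In such bulk tissue, more cells of a type and more RNA per cell cannot be told apart.

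Transcripts of 9 of the 10 factors were more abundant in every knockout library than in any control, Bcl6 by a small factor, and Irf8 overlapped between the groups. The mean level was between 2.39-fold (Bach2) and 5.42-fold (Ebf1) higher in knockout for 8 of them, 1.36-fold higher for Bcl6 and 1.04-fold for Irf8. The knockout libraries lay above all controls for 9 of 10 factors, where 6.77% of the 14180 tested genes did so, and below all controls for 0, where 6.52% did. All 10 log2 fold changes were positive, as were 46.9% over all tested genes. The median log2 fold change of the 10 was 1.87, against -0.01 for all tested genes. By edgeR's quasi-likelihood test with adjustment, 0 of the 10 were called, with 0% of all genes. Their adjusted p ran from 0.0982 to 0.954, and the smallest of any gene was 0.0958. By unadjusted p under 0.05, that test took 9 of the 10 as higher, where 5.19% of all genes were, and 0 as lower, where 3.35% were (1211 genes in all). DESeq2 called 8 as higher and 0 as lower, where it called 1.89% and 0.292% of the genes it adjusted. The exact test of edgeR called 8 as higher, where it called 2.38% of all genes as higher. limma-voom called 0 of the 10 and 0 genes in all. The authors' deposited table gives 8 of the 10 an adjusted p under 0.05 as higher in knockout, where 2.37% of its genes have one. In that table the authors' deposited log2 fold changes of these 8 lie between 1.02 (Bach2) and 1.63 (Irf4), and that of Bcl6 is 0.42. DESeq2 as run here gave 1.26 (Bach2) to 2.44 (Ebf1) for the same 8 and 0.45 for Bcl6. How the deposited values were estimated is not settled, so the sizes are not compared. The factors below are said to have risen where DESeq2 called them.

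**Figure D1:**
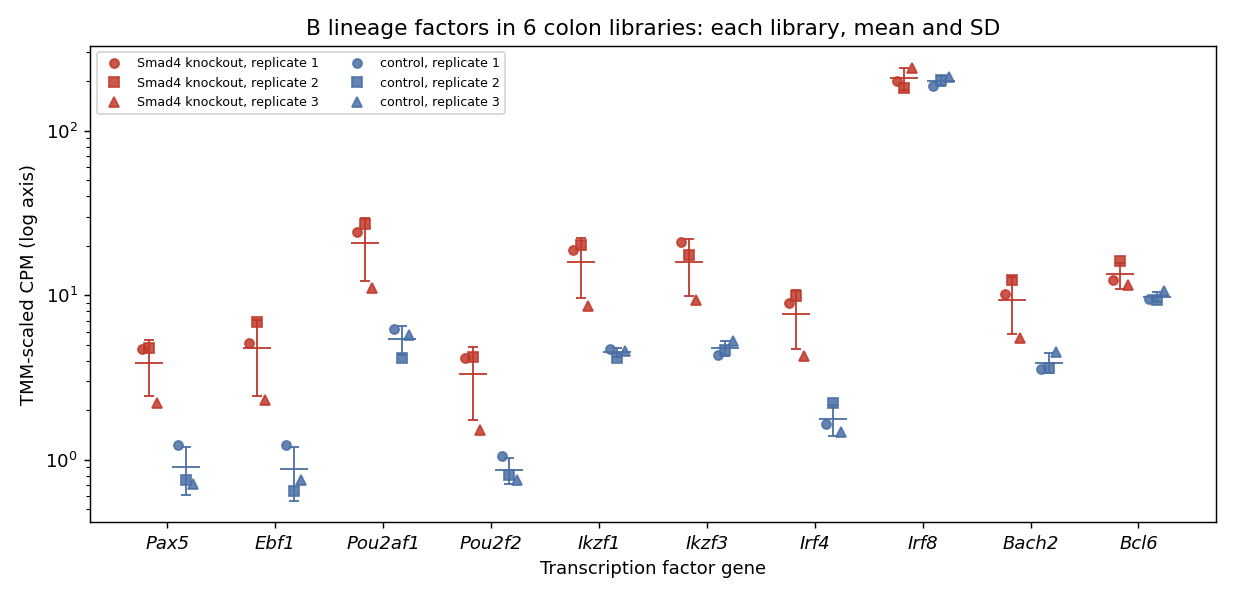
TMM-scaled CPM (log axis) of the 10 factors in each of 3 Smad4 knockout libraries (red, left of each pair) and 3 control libraries (blue, right); horizontal ticks are means and bars are SD. Every knockout point lies above every control point for 9 factors, and for Irf8 the groups overlap, between 183 and 242.8 CPM in knockout.

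Pax5 and Ebf1, the factors that commit cells to the B lineage, were 2 of the 3 scarcest members per length and had fold changes among the largest. Pax5 (ENSMUSG00000014030, chromosome 4, 44524757 to 44710487, mm10, minus strand) was counted 102, 101 and 50 times in knockout libraries, against 27, 14 and 18 times in control libraries. This corresponds to 4.69, 4.79 and 2.22 CPM in knockout and 1.24, 0.752 and 0.717 CPM in control libraries. Knockout replicate 3 was the lowest of its group and still lay above the highest control. Pax5 rose by DESeq2 (adjusted p = 1.09e-04), and its edgeR log2 fold change was 2.104 ± 0.38 (SE, adjusted p = 0.0989). Ebf1 (ENSMUSG00000057098, chromosome 11, 44617317 to 45008091, plus strand) was at 5.10, 6.88 and 2.31 CPM in knockout libraries and at 1.24, 0.644 and 0.757 CPM in control libraries. The groups did not overlap. Ebf1 rose by DESeq2 (adjusted p = 2.62e-05), with an edgeR log2 fold change of 2.42 ± 0.45 (SE, adjusted p = 0.102). The ratio of Ebf1 to Pax5 was 1.19 ± 0.216 in knockout and 0.971 ± 0.102 in control libraries (SD, n = 3 each), and these values overlapped.

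Pou2af1 and Pou2f2, the co-activator and its octamer-binding partner, had nearly equal fold changes. Pou2af1 (ENSMUSG00000032053, chromosome 9, 51213708 to 51240080, plus strand) was at 24.2, 27.3 and 11.1 CPM in knockout libraries, against 6.23, 4.19 and 5.78 CPM in control libraries. Its lowest knockout library lay above its highest control. It rose by DESeq2 (adjusted p = 3.87e-07), with an edgeR log2 fold change of 1.94 ± 0.33 (SE, adjusted p = 0.0982). Pou2f2 (ENSMUSG00000008496, chromosome 7, 25087344 to 25179726, minus strand) was at 4.18, 4.22 and 1.51 CPM in knockout libraries and at 1.05, 0.805 and 0.757 CPM in control libraries. It rose by DESeq2 (adjusted p = 0.00330), with an edgeR log2 fold change of 1.91 ± 0.42 (SE, adjusted p = 0.143). That call was lost without knockout replicate 1 (DESeq2 adjusted p = 0.164), without knockout replicate 2 (0.136) and without control replicate 3 (0.0732). Within a library, Pou2af1 had 6.54 ± 0.804 times the CPM of Pou2f2 in knockout and 6.25 ± 1.25 times in control libraries (SD, n = 3 each).

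Ikzf1 and Ikzf3, which are also expressed in T cells, had similar fold changes. Ikzf1 (ENSMUSG00000018654, chromosome 11, 11685003 to 11772926, plus strand) was at 18.8, 20.3 and 8.65 CPM in knockout libraries, against 4.72, 4.19 and 4.58 CPM in control libraries. Ikzf3 (ENSMUSG00000018168, chromosome 11, 98464902 to 98546031, minus strand) was at 21.1, 17.7 and 9.32 CPM in knockout libraries and at 4.35, 4.67 and 5.30 CPM in control libraries. For both genes knockout replicate 3 was the lowest of its group and the groups did not overlap. Both rose by DESeq2 (adjusted p = 1.02e-06 for Ikzf1 and 1.05e-06 for Ikzf3). Their edgeR log2 fold changes were 1.82 ± 0.31 and 1.74 ± 0.29 (SE, adjusted p = 0.0982 for each). The ratio of Ikzf3 to Ikzf1 was 1.02 ± 0.134 in knockout and 1.06 ± 0.125 in control libraries (SD, n = 3 each).

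The pair of interferon regulatory factors parted. Irf4 (ENSMUSG00000021356, chromosome 13, 30749226 to 30766976, plus strand), needed for plasma cell formation and for activated lymphocytes in general, was at 9.01, 9.92 and 4.26 CPM in knockout libraries, against 1.65, 2.20 and 1.47 CPM in control libraries. The groups did not overlap, and Irf4 rose by DESeq2 (adjusted p = 1.36e-06), with an edgeR log2 fold change of 2.13 ± 0.35 (SE, adjusted p = 0.0982). Irf8 (ENSMUSG00000041515, chromosome 8, 120736358 to 120756694, plus strand), which acts in B cells, macrophages and dendritic cells, was at 201.8, 183 and 242.8 CPM in knockout libraries and at 186.8, 203.7 and 213.7 CPM in control libraries. The Irf8 control values lay within the knockout range. The log2 fold change was 0.055 ± 0.12 (SE, edgeR adjusted p = 0.954), and it turned to -0.055 without knockout replicate 3. Irf8 stood at 209.2 ± 30.6 CPM in knockout and 201.4 ± 13.6 CPM in control libraries (SD, n = 3 each), whereas the 14 myeloid and dendritic markers together summed to 35.6 to 75.5 CPM in knockout and 24.5 to 28.4 CPM in control libraries.

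Bach2 and Bcl6, the repressors of the germinal centre stage, were higher by smaller factors. Bach2 (ENSMUSG00000040270, chromosome 4, 32238804 to 32586108, plus strand) was at 10.2, 12.4 and 5.50 CPM in knockout libraries, against 3.57, 3.60 and 4.54 CPM in control libraries. Knockout replicate 3 lay closest to the controls, and the groups did not overlap. Bach2 rose by DESeq2 (adjusted p = 0.00406), with an edgeR log2 fold change of 1.25 ± 0.30 (SE, adjusted p = 0.161). The call was lost without knockout replicate 1 (DESeq2 adjusted p = 0.133), without knockout replicate 2 (0.158) and without control replicate 2 (0.0696). Bcl6 (ENSMUSG00000022508, chromosome 16, 23965052 to 23988852, minus strand) was at 12.4, 16.1 and 11.6 CPM in knockout libraries and at 9.53, 9.34 and 10.6 CPM in control libraries. The groups did not overlap, but the lowest knockout and the highest control library were close. Its log2 fold change of 0.44 ± 0.15 (SE) passed neither with edgeR (adjusted p = 0.390) nor with DESeq2 (adjusted p = 0.335). Without knockout replicate 2, the highest library, the edgeR value was 0.29 (adjusted p = 0.685).

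Start regions of the factors were read from RefSeq (build GRCm38.p6, which is mm10), where 9 of the 10 matched by symbol, all but Ikzf3, with 13 windows of 250 bases before a gene start. A few are shown because 8 of the factors were called together, and most of the motifs searched are those of the factors' own families. The 5 motifs, searched on both strands and with overlaps allowed, were the octamer ATGCAAAT (in 1.60% of 32851 windows of that length), the Ets-IRF composite GGAA and GAAA with 2 free bases between (2.30%), the Ebf palindrome TCCC and GGGA with 2 free bases between (0.779%), the Bcl6 site TTCCTNGAA (1.31%) and the PU.1 box GAGGAAGT (2.44%). At least 1 motif was found in 3 of the 13 windows. An Ets-IRF composite stood 17 bases before an inner start of Bach2 and 120 bases before a start of Pou2f2. An inner start of Bcl6 had a Bcl6 site at 168 bases and an Ets-IRF composite at 28 bases before it. The Bach2 and Bcl6 windows with matches lie inside the gene and hold no exon base by GENCODE, whereas the Pax5 and Pou2af1 windows lie upstream of the annotated gene. The Pax5 and Pou2af1 windows held none of the 5 motifs and are printed beside the others for contrast. Capitals mark the matched letters, and each line reads 5′ to 3′ on the strand of the gene.
Bach2, chr4:32417185-32417434, plus strand: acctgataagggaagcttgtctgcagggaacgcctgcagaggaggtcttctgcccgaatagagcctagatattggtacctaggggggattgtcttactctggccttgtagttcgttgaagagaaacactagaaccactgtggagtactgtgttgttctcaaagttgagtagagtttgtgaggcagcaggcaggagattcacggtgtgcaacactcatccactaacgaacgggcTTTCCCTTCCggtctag
Bcl6, chr16:23981284-23981533, minus strand: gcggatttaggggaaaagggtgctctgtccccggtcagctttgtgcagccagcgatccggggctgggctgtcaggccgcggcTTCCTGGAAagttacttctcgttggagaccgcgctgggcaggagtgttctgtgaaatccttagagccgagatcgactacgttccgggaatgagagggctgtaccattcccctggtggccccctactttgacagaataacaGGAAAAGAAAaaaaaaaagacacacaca
Pax5, chr4:44710695-44710944, minus strand: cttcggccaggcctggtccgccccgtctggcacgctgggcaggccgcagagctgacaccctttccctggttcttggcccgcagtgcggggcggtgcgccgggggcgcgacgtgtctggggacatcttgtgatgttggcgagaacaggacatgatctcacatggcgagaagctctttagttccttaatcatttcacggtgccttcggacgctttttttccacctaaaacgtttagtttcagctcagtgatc
Pou2af1, chr9:51213440-51213689, plus strand: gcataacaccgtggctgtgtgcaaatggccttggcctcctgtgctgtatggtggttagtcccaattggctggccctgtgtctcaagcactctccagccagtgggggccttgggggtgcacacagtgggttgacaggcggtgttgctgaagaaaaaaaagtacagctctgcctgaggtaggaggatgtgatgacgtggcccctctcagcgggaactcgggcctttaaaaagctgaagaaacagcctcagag

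A match in these windows is a description of the letters and not a bound site. The Bach2 match is TTTCCCTTCC, the composite read on the other strand, and the Bcl6 matches are TTCCTGGAA and GGAAAAGAAA.

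The spread among knockout libraries was shared by the factors. Knockout replicate 3 was the lowest of its group for 9 of 10 factors, and for Irf8 it was the highest. For the 8 factors that DESeq2 called, it stood at 35.9% (Pou2f2) to 48.8% (Bach2) of the mean of the other knockout libraries, and at 1.41-fold (Bach2) to 2.62-fold (Ebf1) of the control mean. Without it, edgeR's quasi-likelihood test called 8 of the 10 factors, and 266 genes in all. T cell markers in that library summed to 65.1 CPM, against 94.1 and 81.6 CPM in knockout replicates 1 and 2, and myeloid markers to 35.6 CPM, against 75.5 and 61.2 CPM. Their part in the spread was not tested.

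**Figure D2:**
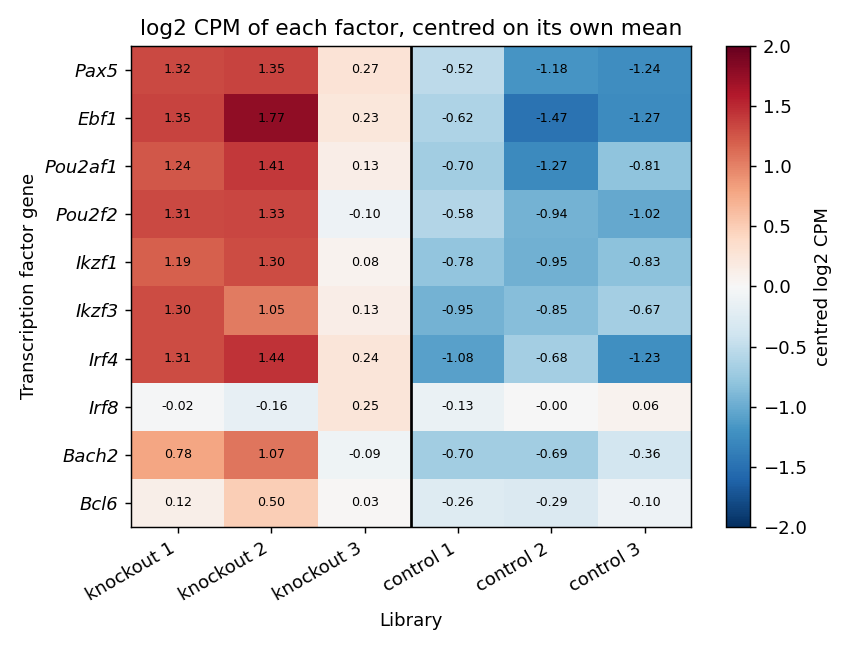
log2 CPM of each factor (rows) in each library (columns, knockout left of the line), centred on the mean of that factor over the 6 libraries. Knockout replicates 1 and 2 are the highest libraries for each factor except Irf8, and knockout replicate 3 lies between them and the controls for the same 9; Bcl6 shows the same order in paler shades.

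Per kilobase of annotated exon, which allows levels of different genes to be set side by side, Irf8 stood far above the rest. It was at 29.7 ± 4.34 CPM per kb in knockout and 28.5 ± 1.92 CPM per kb in control libraries (SD, n = 3 each), which is 3.62 times and 13.5 times the level of Pou2af1, the next in order. Pou2af1 was at 8.19 ± 3.37 CPM per kb in knockout and 2.12 ± 0.421 in control libraries. In knockout libraries Ikzf1 (2.76 CPM per kb), Bcl6 (2.0), Ikzf3 (1.83), Irf4 (1.58) and Bach2 (0.941) followed, then Ebf1, Pax5 and Pou2f2 at 0.488, 0.441 and 0.401 CPM per kb. From Ikzf1 down, each overlapped its neighbour in that order. In control libraries Bcl6 (1.47 CPM per kb) stood above Ikzf1 (0.778), Ikzf1 above Ikzf3 (0.545) and Ikzf3 above Bach2 (0.393), in each case without overlap. Bach2 overlapped Irf4 (0.362), and Pou2f2, Pax5 and Ebf1 came last at 0.106, 0.102 and 0.0902 CPM per kb and overlapped. Bcl6 lay below Ikzf1 in knockout replicates 1 and 2 but above it in knockout replicate 3 (1.735 and 1.498 CPM per kb) and in each control.

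The factors were then set against the B cells of the same library through 21 surface and signalling genes that hold none of the factors. All 21 had a positive log2 fold change, with a median of 1.97, 18 rose by DESeq2, and edgeR's quasi-likelihood test called 0 (19 at an unadjusted p under 0.05). The log2 fold change was 2.69 ± 0.35 (SE) for Fcrl1, related to Fc receptors, and 2.28 ± 0.34 for the complement receptor Cr2. Blnk and Ralgps2 stood apart from the other 19, at 0.19 ± 0.08 and 0.12 ± 0.09, where the 19 ran from 1.38 to 2.69. At 138.3 and 97.1 CPM in knockout and 121.4 and 89.2 CPM in control libraries, this pair made up 51.1% and 78.9% of the summed marker level. Against that sum, the factors other than Irf8 and Bcl6 had log2 differences between 0.42 (Bach2, exact permutation p = 0.2) and 1.59 (Ebf1, p = 0.1), Irf8 had -0.72 and Bcl6 -0.34. The mean log2 level, which gives each marker the same weight, was therefore used instead, a choice made after the values were seen, and the direction of Pou2f2, Bach2, Ikzf1 and Ikzf3 turned with it. Blnk and Ralgps2 stay in that mean and hold its rise below that of the other 19. Each difference from it would thus be lower without this pair, and those values were not computed.

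Relative to the mean log2 level of the markers, 7 of the 10 factors overlapped between the groups and 3 were lower in knockout. The markers were 1.72 higher in knockout on that scale. The log2 fold changes of Irf8, Bcl6 and Bach2 were 0.055, 0.44 and 1.25. Lower here therefore means that these factors rose less than the markers or not at all, and not that their CPM fell. The differences of the 7 ran from -0.072 (Ikzf3) through -0.028 (Pou2f2), -0.012 (Ikzf1), 0.13 (Pou2af1), 0.24 (Pax5) and 0.27 (Irf4) to 0.51 (Ebf1). Bach2 differed by -0.55, with -0.46, -0.34 and -0.48 in knockout libraries and -0.20, 0.09 and 0.48 in control libraries. Bcl6 differed by -1.29, with -0.17, 0.04 and 0.59 in knockout libraries and 1.19, 1.45 and 1.69 in control libraries. Irf8 differed by -1.67, at 4.11 ± 0.752 in knockout and 5.79 ± 0.282 in control libraries (SD, n = 3 each). For each of these 3 the exact two-sided permutation p was 0.1, the smallest that 3 against 3 libraries allow, and 0.333 when adjusted over the 10 differences.

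**Figure D3:**
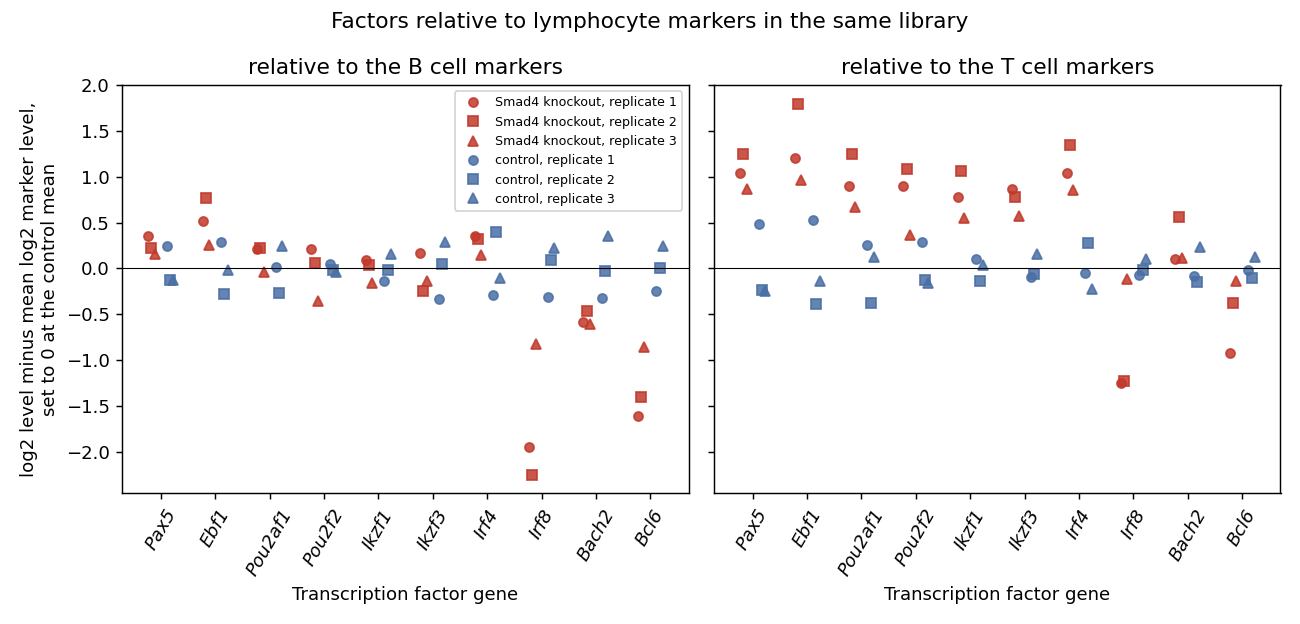
log2 CPM of each factor minus the mean log2 CPM of 21 B cell markers (left panel) or of 16 T cell markers (right panel) in the same library, shifted so that the control mean is 0; red points are knockout libraries and blue points control libraries. Against the B cell markers the groups overlap for 7 factors and Irf8, Bach2 and Bcl6 lie lower in knockout, and against the T cell markers 7 factors lie higher.

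T cell markers were higher as well, by less in the median but not in each gene. Of 16 tested T cell markers, all had a positive log2 fold change, with a median of 0.94, and 5 rose by DESeq2. Those 5 were Cd28, Cd4, Cd6, Icos and Cd2, from 1.51 (Cd4) to 1.67 (Icos), which is above Bach2 (1.25). The whole list ran from 0.14 (Bcl11b) to 1.74 (Cd5), with Cd3d, Cd3e and Cd3g at 0.40, 0.53 and 0.58. The mean therefore does not stand for each T cell gene. The mean log2 level of the 16 markers was 0.91 higher in knockout. Relative to it, 7 factors were higher in all knockout libraries, from Ikzf3 by 0.74 to Ebf1 by 1.32. Irf8 and Bcl6 were lower relative to it in all knockout libraries, with differences of -0.86 and -0.48, though their own mean CPM were not lower. Bach2 overlapped with a difference of 0.26. The exact two-sided permutation p was 0.1 for each of the 9 that did not overlap (0.111 adjusted over 10) and 0.3 for Bach2.

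Relatives of the factors in the same gene families showed no common direction. Of 14 tested relatives 5 had a positive and 9 a negative log2 fold change, with a median of -0.06. DESeq2 called 1 as higher and 1 as lower. Irf5, a factor of myeloid cells and B cells, was at 6.43, 8.69 and 3.64 CPM in knockout libraries, against 2.52, 1.99 and 3.19 CPM in control libraries, and rose by DESeq2 (adjusted p = 0.0176). Irf7, an amplifier of type I interferon, was at 105.5, 112.4 and 99.2 CPM in knockout libraries and at 125.6, 172.4 and 147.1 CPM in control libraries, and fell by DESeq2 (adjusted p = 0.0280). Ikzf2 (Helios) was at 15.8 ± 1.73 CPM in knockout and 18.6 ± 1.27 CPM in control libraries (SD, n = 3 each), with a log2 fold change of -0.23 ± 0.12 (SE). Irf1 had -0.17 ± 0.09.

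Some of the other factors known from B cell development rose. Of 21 tested, 15 had a positive log2 fold change, with a median of 0.15, and 6 rose by DESeq2. Bcl11a, a zinc finger factor needed for B cell development, was not among them but did not overlap between the groups (log2 fold change 0.37 ± 0.12, SE). Spib, an Ets factor of B cells and of M cells over follicles, was at 28.6, 32.6 and 17.3 CPM in knockout libraries, against 9.76, 9.02 and 9.56 CPM in control libraries (log2 fold change 1.47 ± 0.22, SE). Mef2c, which acts in B cell activation, was at 13.8, 15.9 and 5.68 CPM in knockout libraries and at 3.12, 3.28 and 1.87 CPM in control libraries. For both genes the groups did not overlap, with knockout replicate 3 the lowest of its group. Ets1 and Fli1, Ets factors of lymphocytes and of endothelium and blood cells, had log2 fold changes of 1.32 ± 0.22 and 1.68 ± 0.32 (SE). Spib, Ets1, Fli1 and Mef2c had DESeq2 adjusted p of 1.89e-07, 2.29e-06, 9.68e-04 and 6.66e-06.

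**Figure D4:**
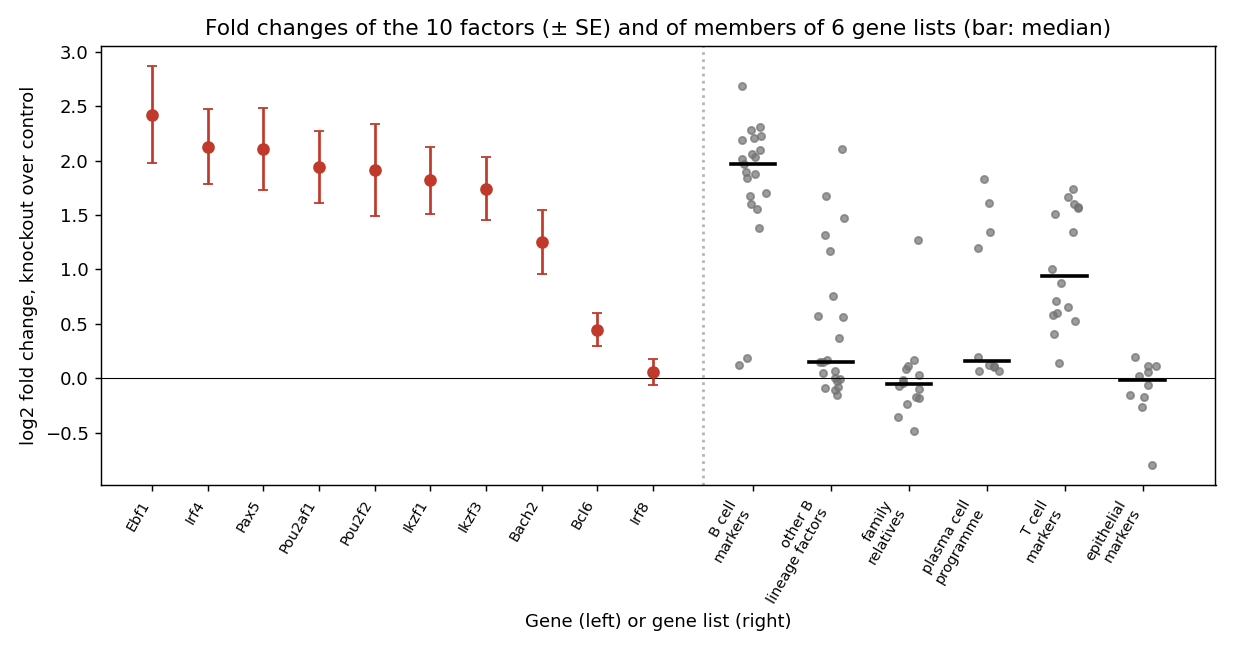
log2 fold changes, knockout over control, of the 10 factors with their SE (red, left) and of each tested member of 6 gene lists (grey points, right; the bar is the median). Of the factors, 7 lie between 1.74 and 2.42, near the B cell marker median of 1.97. The T cell marker median is 0.94. The medians of the plasma cell programme (0.16), other B lineage factors (0.15), family relatives (-0.06) and epithelial markers (-0.02) lie near 0.

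Genes that these factors act on, or act beside, were described in the same way. Of 7 genes that Pax5 is known to activate, all had a positive log2 fold change, with a median of 1.84, and 5 rose by DESeq2, among them Cd79a (2.20 ± 0.37, SE), a chain of the B cell receptor. All but Nedd9 are also among the B cell markers. Of 9 tested germinal centre genes, all were positive with a median of 0.54, and 2 rose by DESeq2, the follicle homing receptor Cxcr5 (1.95 ± 0.33) and the cytokine receptor Il21r (1.55 ± 0.31).

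Of 6 genes that Bcl6 is known to repress, 4 had a positive log2 fold change, with a median of 0.79, and 2 rose by DESeq2. Gpr183, which guides B cells within follicles, was at 4.04, 4.98 and 2.75 CPM in knockout libraries, against 0.962, 1.34 and 0.757 CPM in control libraries. S1pr1, a receptor for exit from lymphoid tissue, had a log2 fold change of 2.07 ± 0.41 (SE), Cd69 1.47 ± 0.41 and Id2 -0.63 ± 0.32. Prdm1, the repressor of the B cell programme in plasma cells, overlapped between the groups, at 6.34, 8.78 and 7.01 CPM in knockout libraries and 7.75, 6.44 and 6.18 CPM in control libraries. Among 10 tested plasma cell genes, which include Prdm1, the median log2 fold change was 0.16 and 1 rose by DESeq2, the receptor Tnfrsf13b (1.61 ± 0.37, SE). Igj, the joining chain of secreted antibodies, was at 171 ± 126 CPM in knockout and 48.2 ± 15.2 CPM in control libraries (SD, n = 3 each), and did not pass (DESeq2 adjusted p = 0.171).

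Genes with the most similar profiles were found by the root mean square difference of log2 CPM over the 6 libraries. Each gene was centred on its own mean. The candidates were 11400 genes with a mean of at least 1 CPM. Predicted genes (Gm and Rik names) and segments of immunoglobulins and T cell receptors were left out of the candidates. For the 8 factors that DESeq2 called, 7 of the 24 nearest places were held by genes of the B cell list, which has 21 of the 11400 candidates. The 24 places went to 22 different genes. The measure includes the difference between the groups, so genes with a similar fold change lie near each other. Among those nearest to Pax5 were Rasgrp3 (0.114) and Cd79a (0.118), among those nearest to Ebf1 Cd22 (0.178) and Cd86 (0.191), and nearest to Irf4 were Cxcr5 (0.114), Ms4a1 (0.145) and Blk (0.160). Cd79b (0.107), Plxnc1 (0.112) and Ly9 (0.121) were nearest to Pou2af1, and Plxnc1 (0.115), Prkcb (0.128) and Slamf6 (0.134) to Pou2f2. Plxnc1 (0.0824), Hvcn1 (0.0893) and Nckap1l (0.0904) were nearest to Ikzf1, Arhgdib (0.0945), Parvg (0.0967) and Clec2i (0.108) to Ikzf3, and Sept1 (0.0622), Vpreb3 (0.0982) and Ppp1r18 (0.111) to Bach2. Card10 (0.0394), Gstp2 (0.0430) and Vps18 (0.0476) were nearest to Irf8, and Xylt1 (0.0814), Fhl3 (0.0928) and Nlrc3 (0.0928) to Bcl6. Among Pax5, Ebf1, Irf4, Pou2af1, Pou2f2, Ikzf1 and Ikzf3 themselves, the differences of the 21 pairs ran from 0.143 to 0.481, against 0.925 to 1.28 between Irf8 and these 7 and 0.686 to 1.00 between Bcl6 and these 7.

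Markers of other cell types were set beside the factors. Of the 14 myeloid and dendritic markers 8 were tested, and these were all positive with a median log2 fold change of 0.59, led by the lysozyme gene Lyz2 (1.69 ± 0.36, SE). Of the 7 fibroblast markers 6 were tested, and these were all positive with a median of 1.24, led by decorin (Dcn, 1.91 ± 0.23). All 7 summed to 17.8 to 25.5 CPM in knockout and 10.04 to 14.0 CPM in control libraries. The follicle chemokine Cxcl13 had 2.62 ± 0.55. The 6 endothelial markers summed to 4.84 to 7.49 CPM in knockout and 3.59 to 4.40 CPM in control libraries. The 5 smooth muscle markers summed to 14.1 to 15.2 CPM in knockout and 52.0, 14.7 and 17.2 CPM in control replicates 1, 2 and 3. The 10 epithelial markers were split 5 to 5 with a median of -0.02, and DESeq2 called none of them as higher or lower, while quasi-likelihood took 0 at an unadjusted p under 0.05. The part of these cell types in the levels of the factors was not tested.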

How the data were processed

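Per the labels' protocols, RNA from the scraped layer was read as single ends of 51 bases. TopHat 2.1.0 placed the reads on mm10, HTSeq 0.5.4p5 with samtools 1.3.1 counted them over genes, and edgeR 3.4.2 tested the counts. Per the submitters' processing notes, Bowtie 0.12.2 was used, with mm8 named beside mm10. The comparison columns carry DESeq2's names, so which aligner, build and test apply is not settled. Whether counting used strand is not stated, and exons of Pax5, Bach2, Bcl6 and Pou2f2 overlap other annotated genes (636 of 8853 bases at most with one gene, for Pax5). The library columns hold raw read counts, as the authors deposited them, 1 column per library. The comparison columns were deposited by the authors too and are used only where named: a mean normalised signal, a log2 fold change, 2 score columns (its standard error and statistic), and p-values before and after adjustment.

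Counts were scaled by TMM, filtered with filterByExpr and compared by quasi-likelihood F tests in edgeR 4.0.16 (R 4.3.3) that held only the group, with Benjamini-Hochberg adjustment over 14180 genes at 0.05. Standard errors are the size of the log2 fold change over the root of F. limma-voom (limma 3.58.1), DESeq2 1.42.0, edgeR's exact test, other scalings and filters, the replicate block and the omission of libraries were alternatives. Libraries held 18918880 to 25867997 counts, and 3 counts correspond to 0.116 to 0.159 CPM (counting error only). Replicates differed by more than sampling noise. The labels name separate mice. Coordinates and exon lengths come from GENCODE M21 (mm10), which holds 98.1% of the IDs. Named genes are all 10 factors, up to 4 genes per list with the smallest p, and the 3 nearest profiles per factor; any other named gene was chosen after its values were seen. A few genes picked by these criteria are not reported here. The factors, lists and tests were chosen with earlier results of these data known. The planned protein comparison was not run.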

Additional observations from a re-analysis of the deposited data

How the results depend on the processing

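The quasi-likelihood test called 0 genes and 0 of the 10 factors with RLE, upper quartile and total scaling, with a mean count of at least 10, without mitochondrial genes and those of immunoglobulins and T cell receptors, and with limma-voom in its place. With no count filter it called 157 genes and 6 factors. DESeq2 called 336 genes and 8 factors, and the edgeR exact test 384 and 8. Leaving out each library gave 0 to 266 genes and 0 to 8 factors with quasi-likelihood, 142 to 483 genes and 6 to 8 factors with DESeq2, and 192 to 613 genes and 6 to 8 factors with the exact test; the last pair of tools was rerun in this way after the data were seen. All factor calls of quasi-likelihood in that range came without knockout replicate 3. The cause was not tested. With the replicate number as a block, 0 genes and 0 factors were called. Same-numbered libraries did not deviate together (correlations of -0.05, -0.14 and 0.14 for numbers 1, 2 and 3), and the best partner shared the number for replicate 3 but not for replicates 1 and 2. In 28 alternatives the 9 factors other than Irf8 kept a positive log2 fold change. Irf8 reversed without knockout replicate 3, to -0.055 with edgeR's quasi-likelihood and exact tests and -0.064 with DESeq2, and ran from -0.064 to 0.15 over all alternatives. The factors without overlap between groups numbered 9 under each scaling run. They also numbered 9 in each omission run, but those runs are no test of it. Leaving out a library cannot make separated groups overlap, except through rescaling.

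Relative to the summed B cell markers, the log2 difference of Bach2 went to 0.075 and that of Bcl6 to -0.68 without Blnk, the most abundant marker. With the mean log2 marker level the differences were 0.24 for Pax5, 0.51 for Ebf1, 0.27 for Irf4, -1.67 for Irf8, 0.13 for Pou2af1, -0.028 for Pou2f2, -0.55 for Bach2, -1.29 for Bcl6, -0.012 for Ikzf1 and -0.072 for Ikzf3; those of Pou2f2, Bach2, Ikzf1 and Ikzf3 are reversed by this choice. The low counts of Pax5, Ebf1 and Pou2f2 in control libraries limit their fold changes.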

Other observations

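Ratios of Bach2, Bcl6 and Irf4 to Prdm1 were computed within each library after the values were seen, with no test. Prdm1 itself overlapped between the groups (log2 fold change 0.12 ± 0.17, SE), so differences in these ratios largely restate those of the factors. Bach2 had 1.60, 1.41 and 0.785 times the CPM of Prdm1, which it is known to repress, in knockout libraries, against 0.462, 0.558 and 0.735 times in control libraries. Bcl6 had 1.82 ± 0.150 times the CPM of Prdm1 in knockout and 1.47 ± 0.243 times in control libraries (SD, n = 3 each), and these values overlapped. Irf4 had 1.42, 1.13 and 0.608 times the CPM of Prdm1 in knockout libraries, against 0.213, 0.342 and 0.239 times in control libraries. These ratios set genes of unequal length side by side and are read only between groups. Of the symbols in the deposited table, 22 are stored as dates, among them that of ENSMUSG00000000486, which is Sept1 in GENCODE and has the profile nearest to that of Bach2.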
